A study of Mus musculus with 8 samples.

Results

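The 31 genes described here encode the sterol synthesis pathway, its regulators, sterol efflux and transport proteins, and the main enzymes of fatty acid synthesis, read in lung tissue of mice by RNA sequencing. They are a list of names set by role in the pathway, and no measured value is part of the rule. All 31 were among the 24584 genes of the deposited tables, and all 31 passed the filter on low counts that left 15706 genes for testing. The LPS group was 4 wild type male ICR mice that received lipopolysaccharide (LPS), a component of the outer membrane of Gram-negative bacteria, at 5 mg/kg by intraperitoneal injection. The LPS + Tan group was 4 mice that also received tangeretin, a polymethoxylated flavone of citrus peel, at 50 mg/kg by intraperitoneal injection 30 min before LPS. Lungs were taken 12 h after LPS, from mice aged 6 to 8 weeks. All 8 mice carried LPS, and mice without LPS or with tangeretin alone were not analysed here, so the values say how the groups differ under LPS and not how LPS itself acts. The question of the comparison is whether tangeretin changed the level of these genes.

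Cholesterol is built from acetyl-CoA through mevalonate, farnesyl diphosphate, squalene and lanosterol, and the genes of this chain are turned on together by the transcription factor SREBP2 when sterols in the endoplasmic reticulum run low. Its relative SREBP1 acts mainly on fatty acid genes. Both are held in the endoplasmic reticulum by SCAP and the INSIG proteins, whereas a surplus of sterols activates the LXR receptors and raises efflux pumps such as ABCA1. In lung, alveolar type 2 cells make much of the phospholipid of surfactant from newly made fatty acids, and alveolar macrophages clear and export surfactant lipid.

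A decrease in RNA of whole lung can be fewer cells of a type or less RNA per cell, and these cannot be told apart. The libraries held 38895654 to 39931970 counts on genes. The defining markers of alveolar type 2, club, endothelial and alveolar macrophage cells were all measured. No measured marker of the lists used was at 0 in all samples. This also holds for the markers of fat, cardiac and erythroid cells, so it cannot by itself bear out the lung label. Nothing in the labels says more than that the 8 libraries are separate samples, so p-values measure the spread between these samples. LPS + Tan replicate 4 and LPS replicates 3 and 4 stood apart in some of the genes below, and values without single samples are given beside some of them. As each sample was left out in turn, the log2 fold change changed sign in 14 of the 31 genes and moved by over 1.5 times with its sign kept in the other 17.

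Sequence before the start of transcription is shown first for 5 genes, since the letters that NF-Y, a partner of SREBP, binds are found there. Of these stretches, only that of Hmgcs1 held the letters searched for SREBP. The stretches come from RefSeq promoters of GRCm38.p6, read 5′ to 3′ in the direction of the gene, and hold 180 bases each. Each ends before the outermost start of the gene in RefSeq or GENCODE vM21, so no transcribed base is included. Capitals mark the NF-Y letters CCAAT or their complement ATTGG, which share a pair of letters where CCAATTGG occurs, and in Hmgcs1 also the sterol regulatory element letters TCACCCCAC.

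Hmgcs1 (chr13:119690171-119690350, + strand): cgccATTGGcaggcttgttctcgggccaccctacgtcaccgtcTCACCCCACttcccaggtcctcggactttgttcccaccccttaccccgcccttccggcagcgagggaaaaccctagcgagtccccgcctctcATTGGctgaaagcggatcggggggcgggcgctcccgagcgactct
Mvk (chr5:114444089-114444268, + strand): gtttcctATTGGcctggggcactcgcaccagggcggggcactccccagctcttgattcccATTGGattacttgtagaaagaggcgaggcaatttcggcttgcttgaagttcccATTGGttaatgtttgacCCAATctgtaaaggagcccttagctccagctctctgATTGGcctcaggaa
Hsd17b7 (chr1:169969242-169969421, - strand): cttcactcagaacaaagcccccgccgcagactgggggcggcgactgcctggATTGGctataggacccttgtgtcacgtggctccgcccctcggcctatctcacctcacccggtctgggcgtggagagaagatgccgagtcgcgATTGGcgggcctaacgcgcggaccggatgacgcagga
Insig1 (chr5:28071183-28071362, + strand): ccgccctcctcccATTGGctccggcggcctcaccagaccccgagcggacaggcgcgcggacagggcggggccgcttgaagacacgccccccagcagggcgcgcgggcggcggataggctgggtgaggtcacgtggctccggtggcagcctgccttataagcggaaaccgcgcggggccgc
Fasn (chr11:120824548-120824727, - strand): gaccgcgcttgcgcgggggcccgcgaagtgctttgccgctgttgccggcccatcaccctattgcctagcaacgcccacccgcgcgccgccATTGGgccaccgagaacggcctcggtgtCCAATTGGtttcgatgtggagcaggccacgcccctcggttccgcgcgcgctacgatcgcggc

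The 5 genes were picked as a pair of early enzymes, a late enzyme with a wide spread between mice, a regulator and the fatty acid synthase, and the stretches hold 2, 5, 2, 1 and 3 matches to the NF-Y letters in the order shown. A promoter of 300 bases, 250 before the start and 50 after it, was present for 24 of the 31 genes, and for 15 of the 18 enzymes of sterol synthesis. On either strand, CCAAT was found in 14 of these 15 enzyme genes, 93.3%, and in 42.1% of the 12366 tested genes with a promoter. The GC box letters GGGCGG were found in 14 of the 15, 93.3%, against 63.7% of the tested genes. A sterol regulatory element spelled TCACNCNAC was found in 2 of the 24 genes, Hmgcs1 and Nsdhl, against 3.27% of the tested genes, and its stricter form TCACNCCAC in Hmgcs1 alone, against 1.38%. The E-box CACGTG was found in 6 of the 24 genes, against 11% of the tested genes. These shares rest on unlike sets. Over the 24 genes CCAAT was found in 79.2% and GGGCGG in 83.3%. Over the 15 enzyme genes CACGTG was found in 20% and TCACNCNAC in 13.3%. TCACNCCAC is a part of TCACNCNAC, so its matches are counted in both. A match is a description of letters and not a bound site, and other spellings of the element were not searched. The match in Nsdhl lies 205 bases before the start, in a stretch of 60 bases:

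Nsdhl (chrX:72918291-72918350, + strand): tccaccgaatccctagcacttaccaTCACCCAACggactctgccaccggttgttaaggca

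Both desaturases were by far the most abundant of the 31 genes per length of transcript. FPKM values (fragments per kilobase of gene, scaled to the library total) were used for levels between genes. The mean over the 8 samples was 106 FPKM for Scd1 and 90.4 FPKM for Scd2, the stearoyl-CoA desaturases that place the double bond in oleic and palmitoleic acid. The mean of Hmgcs1, the enzyme that condenses acetoacetyl-CoA to HMG-CoA, was 24.7 FPKM, and that of Ebp, the sterol isomerase, was 22.0 FPKM. Fasn, Fdps and Srebf2 followed at 18.4, 18.1 and 18.1 FPKM. These levels rest on the gene lengths behind the authors' FPKM, and with the exonic bases of GENCODE vM21 they would be 17.5, 6.29 and 14.2 FPKM. The 3 highest and the 3 lowest genes have the same ranks with either length. The median gene of the 31 had a mean of 7.87 FPKM. The lowest were Dhcr7, the last reductase of the main route to cholesterol, at 1.58 FPKM, Elovl6, the elongase that turns palmitate into stearate, at 1.26 FPKM, and Tm7sf2, a sterol C14 reductase, at 0.727 FPKM. Single counts ran from 31 for Tm7sf2 to 27303 for Scd1.

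**Figure D1:**
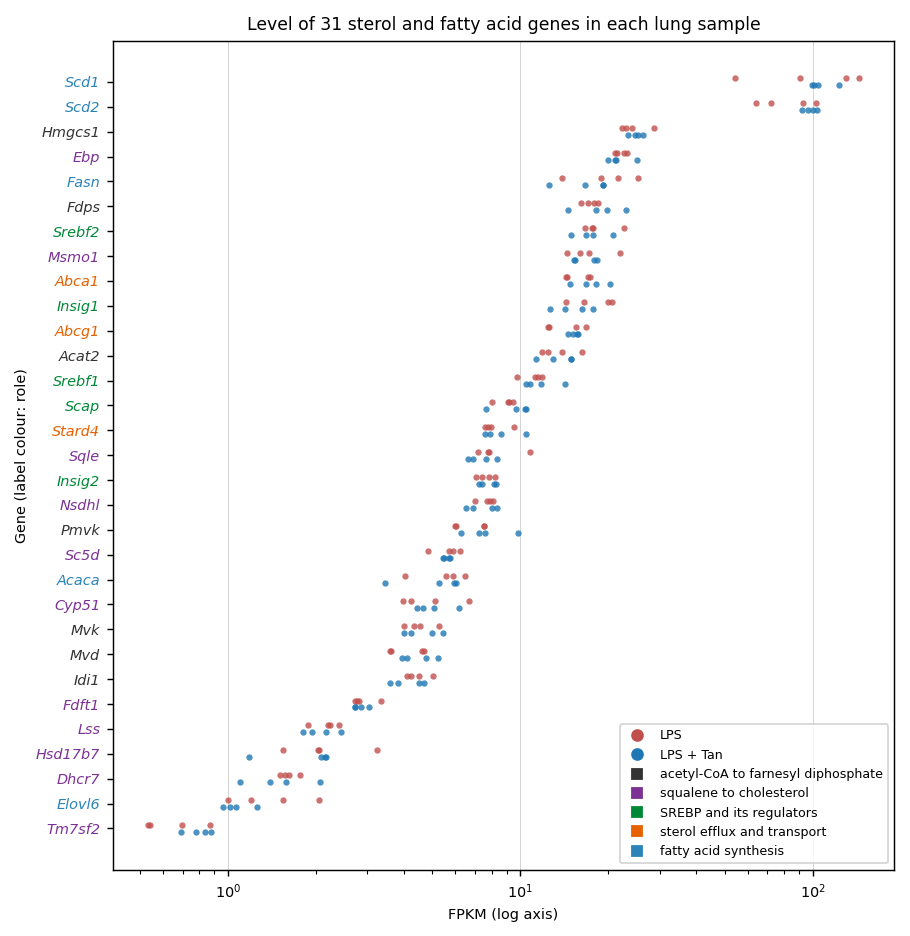
FPKM (log axis) of each of the 31 genes in each of the 8 samples, ordered by the mean, with red points for LPS and blue points for LPS + Tan and the gene names coloured by role. Scd1 and Scd2 lie far above the others and Tm7sf2 lies lowest at a mean of 0.727 FPKM, and the groups overlap in every gene.

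None of the 31 genes passed edgeR's quasi-likelihood test between the groups under any of the thresholds used. At an adjusted p below 0.05 over all tested genes 0 of the 31 were called, where 0% of the 15706 tested genes were called, and the lowest adjusted p was 0.924 for the 31 genes and 0.497 for all genes. At the thresholds of the study's methods, a change of over 2-fold in either direction together with an unadjusted p below 0.05, 0 of the 31 were called, against 0.649% of all tested genes. At an unadjusted p below 0.05 alone, 0 of the 31 were higher and 0 were lower, against 2.87% of all tested genes higher and 2.25% lower. DESeq2 called 1 of the 31 genes lower at that threshold, Elovl6, and 0 after adjustment. Over the 24558 genes with a p from DESeq2, 2.33% were higher and 2.08% lower at that threshold, and 34 genes passed adjustment. edgeR without its count filter also called Elovl6 lower and 0 others of the 31, where 2.57% of 24584 genes were higher and 2.31% lower. With library totals alone in place of TMM factors, 653 of all tested genes were higher and 239 lower, 73.2% higher, where the main fit had 451 and 353, 56.1% higher. The samples of the LPS + Tan group were all above those of the LPS group in 0 of the 31 genes and all below them in 0, against 1.58% and 1.15% of all tested genes.

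The data bound how large a difference could be. The 95% interval of the log2 fold change of LPS + Tan against LPS lay within -1 and 1, a change of 2-fold, for all 31 genes, and within a change of 1.5-fold for 26 of them. The fitted difference was smaller than its standard error in 23 genes. It was positive in 10 genes and negative in 21, with a median log2 fold change of -0.051, where the median of all tested genes was 0.0070. Without LPS replicate 3 it was positive in 16 genes and negative in 15, with a median of 0.0058. With library totals alone it was positive in 15 and negative in 16. Exons of 11 of the 31 genes share bases with another gene in GENCODE vM21, such as Fdft1 with Ctsb on the opposite strand over 774 bases and Fdps with Gm43738 on its own strand over 1124 bases. The strand setting of the counting is not given in the sources used here, so reads of such pairs may be split or mixed.

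**Figure D2:**
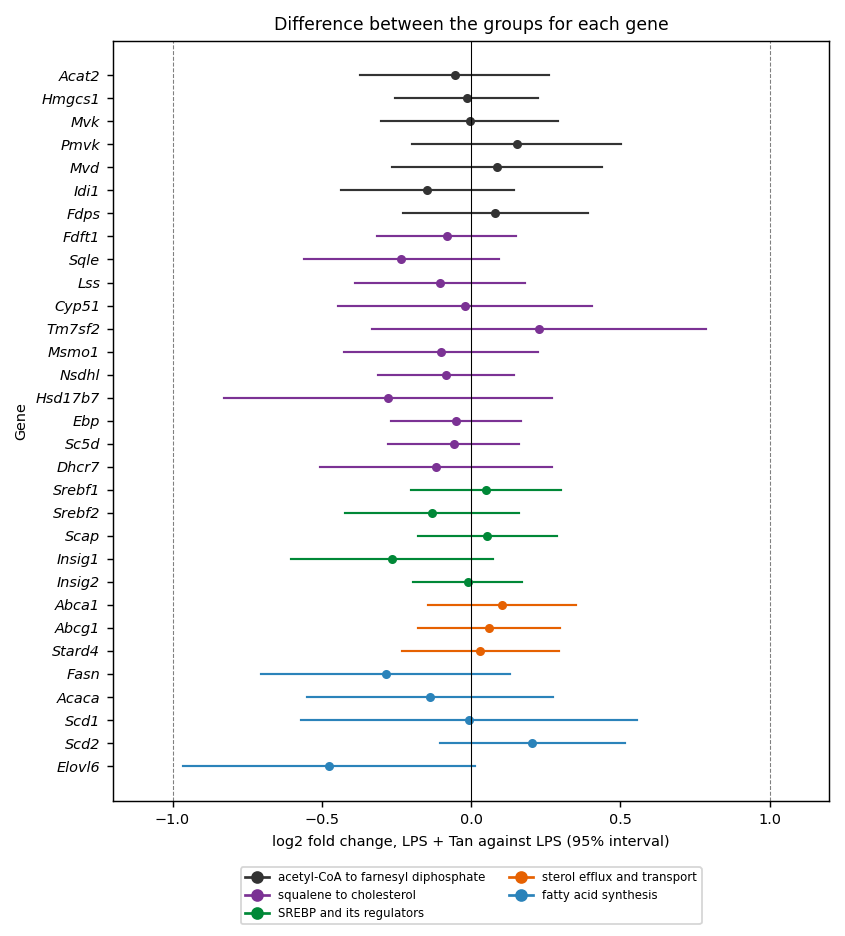
Fitted log2 fold change of LPS + Tan against LPS (points) with its 95% interval (lines) for each of the 31 genes, coloured by role, with dashed lines at 2-fold. The interval holds 0 in all 31 genes and stays between the dashed lines, and Elovl6 comes nearest to leaving 0, with an interval of -0.96 to 0.014.

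The early enzymes, which carry acetyl-CoA to farnesyl diphosphate, were 3 higher and 4 lower in sign. Hmgcs1 was 103, 96.1, 126 and 94.7 CPM in LPS replicates 1 to 4 and 103, 104, 93.6 and 114 CPM in LPS + Tan replicates 1 to 4. CPM here is the count scaled to 1e+06 counts of the library total times its TMM factor. LPS replicate 3 was the highest of the 8, and the other samples of both groups lay together. The log2 fold change of Hmgcs1 was -0.015 with a standard error of 0.11, and its interval, -0.25 to 0.23, was one of the narrower ones. Acat2, a cytosolic thiolase that makes acetoacetyl-CoA, had a log2 fold change of -0.055 (SE 0.14), and has a close copy, Acat3, between which and itself reads could be split. Mvk and Pmvk, the kinases that phosphorylate mevalonate in turn, had -0.0050 (SE 0.13) and 0.15 (SE 0.16). Pmvk owed its positive sign most to LPS + Tan replicate 2, at 33.4 CPM, where the other 7 samples lay between 20.3 and 26.6 CPM, and without that sample it had 0.0089. Mvd, the decarboxylase that gives isopentenyl diphosphate, had 0.085 (SE 0.16), and Idi1, the isomerase that follows it, had -0.15 (SE 0.13). Fdps, the farnesyl diphosphate synthase, had 0.081 (SE 0.14), and its LPS + Tan samples ran from 21.3 to 34.5 CPM around 4 LPS samples between 23.3 and 28.0 CPM.

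The enzymes from squalene to cholesterol had a log2 fold change below 0 in 10 of 11 genes, none past the test, with a median of -0.085. Sqle, the squalene epoxidase and a rate-limiting step after HMG-CoA reductase, was 21.6, 21.4, 30.9 and 19.9 CPM in LPS replicates 1 to 4 and 22.1, 20.8, 17.2 and 19.5 CPM in LPS + Tan replicates 1 to 4. Its log2 fold change was -0.23 with a standard error of 0.15 (edgeR, unadjusted p = 0.141, adjusted p = 0.928), and without LPS replicate 3 it was -0.072. All but 1 LPS sample lay within the range of the LPS + Tan group. Hsd17b7, a sterol C3 ketoreductase, was 8.93, 11.5, 19.2 and 11.7 CPM in LPS replicates 1 to 4 and 12, 11.8, 11.6 and 6.91 CPM in LPS + Tan replicates 1 to 4. The highest sample was again LPS replicate 3 and the lowest was LPS + Tan replicate 4, with the other 6 between 8.93 and 12 CPM. The log2 fold change of Hsd17b7 was -0.28 with a standard error of 0.25. It was -0.019 without LPS replicate 3, -0.12 without LPS + Tan replicate 4 and -0.42 without LPS replicate 1.

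Cyp51, the lanosterol demethylase, averaged 22.2 ± 5.94 CPM in the LPS group and 21.9 ± 4.17 CPM with tangeretin (SD, n = 4 each). Msmo1, the C4 methyl oxidase, had 41.2 ± 8.51 and 38.5 ± 4.79 CPM (SD, n = 4 each). For both, the spread between mice was larger than the difference between the groups. Fdft1, the squalene synthase, had a log2 fold change of -0.081 (SE 0.10), Lss, the lanosterol synthase, one of -0.10 (SE 0.13), and Nsdhl, which removes the C4 carboxyl group, one of -0.085 (SE 0.10). Ebp and Sc5d, which shift and add double bonds in the sterol ring, had -0.051 (SE 0.097) and -0.058 (SE 0.099), and Dhcr7 had -0.12 (SE 0.17), which was -0.29 without LPS + Tan replicate 1 and -0.0031 without LPS + Tan replicate 4. Tm7sf2 was the only one of the 11 above 0, at 0.23, with a wide interval, -0.33 to 0.79, and the lowest counts of the 31 genes. It ran from 0.13 without LPS replicate 2 to 0.39 without LPS replicate 1. Ebp was steady in the LPS group, between 37.8 and 41.0 CPM, and LPS + Tan replicate 4 stood above its group at 45.1 CPM. Without that sample the log2 fold change of Ebp was -0.15 (edgeR, unadjusted p = 0.0490, adjusted p = 0.531), and without LPS + Tan replicate 2 it was -0.013.

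LPS replicate 3 was the highest of the 8 samples in 11 of the 18 enzymes of sterol synthesis, 3 of the 7 early ones and 8 of the 11 later ones, and in 15 of the 31 genes. Against the mean of the other 3 LPS samples it was higher by 28.4% in Hmgcs1, by 47.5% in Sqle, by 56.3% in Cyp51, by 43.7% in Msmo1 and by 78.6% in Hsd17b7. It was also the highest in Srebf2 and Insig1. The sample was not higher in all of the pathway, being below that mean by 12.2% of it in Mvk, 19.8% in Tm7sf2 and 2.21% in Ebp. Of the 18 enzymes, 14 had a negative log2 fold change with all samples and 8 without LPS replicate 3. In the same sample the summed neutrophil markers were the highest of the 8, at 12890 CPM where the other 7 lay between 9072 and 10620 CPM, with Lcn2 at 6479 CPM the largest part. Of the 12 neutrophil markers 5 were highest of the 8 samples there and 1, Mmp8, was lowest. LPS + Tan replicate 1 had the same tally, 5 highest and 1, Lcn2, lowest, so it was not particular to LPS replicate 3. The summed alveolar macrophage markers of LPS replicate 3 were 1334 CPM where the other LPS samples lay between 1617 and 2370 CPM, mostly through Chil3 at 785 CPM. Marco and Fabp5 of that list were instead the highest of the 8 samples there, at 171 and 72.0 CPM. The erythroid markers summed to 3462 CPM, the highest of the 8. The part of these cells in the sterol values was not tested.

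**Figure D3:**
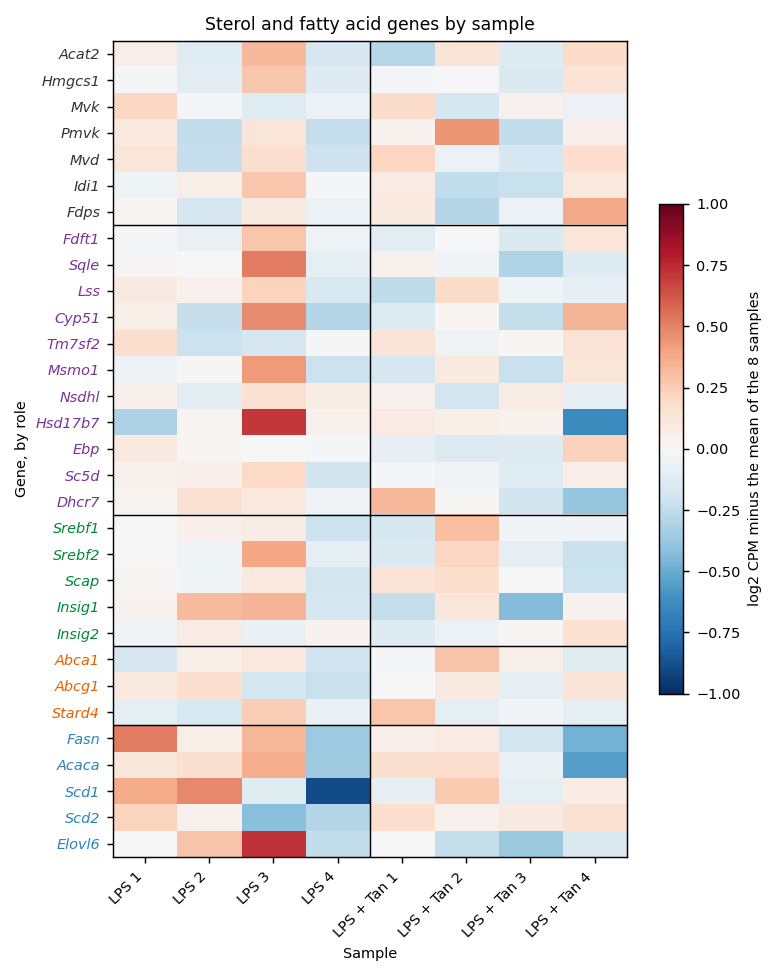
Difference of log2 CPM from the mean of the 8 samples for each of the 31 genes (rows, by role) in each sample (columns), on a colour scale from -1 to 1. The column of LPS replicate 3 is red in most sterol enzymes, being the highest sample in 11 of 18, and that of LPS replicate 4 is blue in Fasn, Acaca, Scd1, Scd2 and Elovl6.

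The enzymes of sterol synthesis were more often positively than negatively correlated across the 8 samples. Over the 8 samples, the median Pearson correlation between the log2 CPM of the enzymes of sterol synthesis was 0.353 over 153 pairs, with 71.9% of pairs positive, and the median over all tested genes was 0.0005. With the group means subtracted it was 0.337. The quartiles over the 8 samples were -0.026 and 0.564 for these enzymes and -0.32 and 0.32 for all tested genes. The median without LPS replicate 3, the highest sample in most of these enzymes, was not computed, so the part of that sample is not known. These are descriptions over 8 samples that share their scaling factors, and the genes are not independent of each other. Of 5 pairs of genes taken as partners in the pathway, Hmgcs1 and Sqle had the highest r, 0.759 (exact permutation test, two-sided, n = 8, p = 0.0350, adjusted over 5 pairs 0.175), with a Spearman rho of 0.500 (exact permutation p = 0.216, adjusted 0.540). Without the 2 samples farthest from the median of Hmgcs1, LPS replicate 3 and LPS + Tan replicate 4, r was 0.716. Within the groups r was 0.981 in LPS and 0.465 in LPS + Tan, over 4 samples each, which is too few for a test. Fasn and Scd1 had an r of 0.507 (exact permutation p = 0.204, adjusted 0.255) and a rho of 0.381 (exact permutation p = 0.360, adjusted 0.600), and r was 0.617 without the 2 farthest samples. For Insig1 and Hmgcs1, r was 0.555 and rho 0.571, with r of 0.562 within LPS and 0.778 within LPS + Tan and of 0.629 with group means subtracted. Without the 2 farthest samples r was -0.040, so the pooled relation did not hold without them. For Srebf2 and Hmgcs1, r went from 0.527, with a rho of 0.238, to -0.62, and for Abca1 and Abcg1 from 0.151, with a rho of 0.119, to -0.58. The raw permutation p of r was 0.153, 0.165 and 0.719 for these 3 pairs and that of rho 0.151, 0.582 and 0.793 (exact, n = 8), and the lowest adjusted p of the 5 pairs was 0.175. Within LPS and within LPS + Tan, r was 0.991 and -0.27 for Srebf2 and Hmgcs1, 0.734 and 0.160 for Fasn and Scd1, and 0.141 and -0.026 for Abca1 and Abcg1, again over 4 samples each with no test.

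The regulators showed no common direction. Srebf2, which encodes SREBP2, was 101, 97.9, 133 and 94.6 CPM in LPS replicates 1 to 4 and 91.5, 116, 94.9 and 86.3 CPM in LPS + Tan replicates 1 to 4, with a log2 fold change of -0.13 (SE 0.13). Without LPS replicate 3 it was -0.0089. Srebf1, which encodes SREBP1, had one of 0.051 (SE 0.11), and Scap, the escort of both, one of 0.054 (SE 0.10). Insig1, a direct target of SREBP that retains SCAP and so closes the feedback loop, was 44.4, 54.3, 55.0 and 38.2 CPM in LPS replicates 1 to 4 and 36.6, 46.9, 31.8 and 44.4 CPM in LPS + Tan replicates 1 to 4. The groups overlapped, with LPS + Tan replicates 1 and 3 below all LPS samples and replicates 2 and 4 among them. The log2 fold change of Insig1 was -0.26 with a standard error of 0.15 (edgeR, unadjusted p = 0.111, adjusted p = 0.927). Without LPS replicate 4 it was -0.36 (unadjusted p = 0.0371, adjusted p = 0.997 by edgeR) and without LPS + Tan replicate 2 -0.35 (unadjusted p = 0.0494, adjusted p = 0.488 by edgeR). The smallest difference was -0.17, without LPS + Tan replicate 3. Insig2, whose product does the same work but which SREBP does not induce, was among the steadiest genes, at 54.2 ± 2.42 and 53.7 ± 4.57 CPM (SD, n = 4 each), with the narrowest interval of the 31, -0.19 to 0.17.

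The 3 genes of efflux and transport were each slightly above 0 in log2 fold change, none past the test. Abca1, the pump that loads cholesterol onto apolipoprotein A-I and a main LXR target, was 153, 180, 185 and 150 CPM in LPS replicates 1 to 4 and 171, 210, 180 and 159 CPM in LPS + Tan replicates 1 to 4. The lowest values were in the LPS group and the highest in the LPS + Tan group, with most samples shared between the ranges, and the log2 fold change was 0.10 with a standard error of 0.11, or 0.021 without LPS + Tan replicate 2. Abcg1, which exports sterol to HDL and is needed for surfactant clearance by alveolar macrophages, had 0.060 (SE 0.11), and Stard4, a carrier of sterol between membranes and an SREBP2 target, had 0.030 (SE 0.12).

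Fatty acid synthesis held the gene nearest to a call and the widest spread. Elovl6 was 7.26, 9.12, 12.7 and 6.01 CPM in LPS replicates 1 to 4 and 7.28, 6.03, 5.42 and 6.52 CPM in LPS + Tan replicates 1 to 4. LPS replicates 2 and 3 were above all LPS + Tan samples, and LPS replicates 1 and 4 were among them. The log2 fold change of Elovl6 was -0.47 with a standard error of 0.22 (edgeR, unadjusted p = 0.0558, adjusted p = 0.924), with 232 to 486 counts per sample in the LPS group. Its unadjusted p was 0.0379 with DESeq2 (adjusted 0.748) and 0.0132 to 0.207 with edgeR as single samples were left out. It was below 0.05 without LPS replicate 1, LPS replicate 4 or LPS + Tan replicate 1, and the highest value was without LPS replicate 3, where the log2 fold change was -0.24.

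Fasn, the fatty acid synthase, was 268, 195, 236 and 146 CPM in LPS replicates 1 to 4 and 194, 199, 165 and 135 CPM in LPS + Tan replicates 1 to 4. Its log2 fold change was -0.29 with a standard error of 0.19 (edgeR, unadjusted p = 0.158, adjusted p = 0.930). LPS replicates 1 and 3 were above all LPS + Tan samples, while LPS replicate 4 was the second lowest of the 8. Without LPS replicate 4 the log2 fold change of Fasn was -0.43 (unadjusted p = 0.0249, adjusted p = 0.997 by edgeR), and without LPS replicate 1 it was -0.15. Acaca, the acetyl-CoA carboxylase that makes malonyl-CoA for it, had a log2 fold change of -0.14 (SE 0.18), and its lowest samples, 43.4 and 37.9 CPM, were replicate 4 of each group.

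Scd1 was 641, 692, 456 and 265 CPM in LPS replicates 1 to 4 and 466, 592, 463 and 521 CPM in LPS + Tan replicates 1 to 4. Its group means, 513 ± 194 and 511 ± 60.2 CPM (SD, n = 4 each), were nearly equal, and its log2 fold change was -0.0072 with a standard error of 0.25. The spread of Scd1 in log2 CPM was the largest of the 31 genes in the LPS group, with a SD of 0.63, and was 0.17 in the LPS + Tan group. The paralog Scd2 had a SD of 0.30 in LPS and of 0.059 in LPS + Tan. It was 568, 501, 364 and 397 CPM in LPS replicates 1 to 4 and 547, 501, 518 and 543 CPM in LPS + Tan replicates 1 to 4. The log2 fold change of Scd2 was 0.20 with a standard error of 0.14 (edgeR, unadjusted p = 0.172, adjusted p = 0.931), and without LPS replicate 1 it was 0.33 (unadjusted p = 0.0316, adjusted p = 0.877 by edgeR) and without LPS replicate 3 it was 0.11. The difference in spread between the groups was not tested, and over all genes of at least 1 CPM the median SD of log2 CPM was 0.15 in LPS and 0.20 in LPS + Tan. Scd1 and Scd2 are neighbours on chromosome 19 with similar coding sequence, between which the counting could have split reads.

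**Figure D4:**
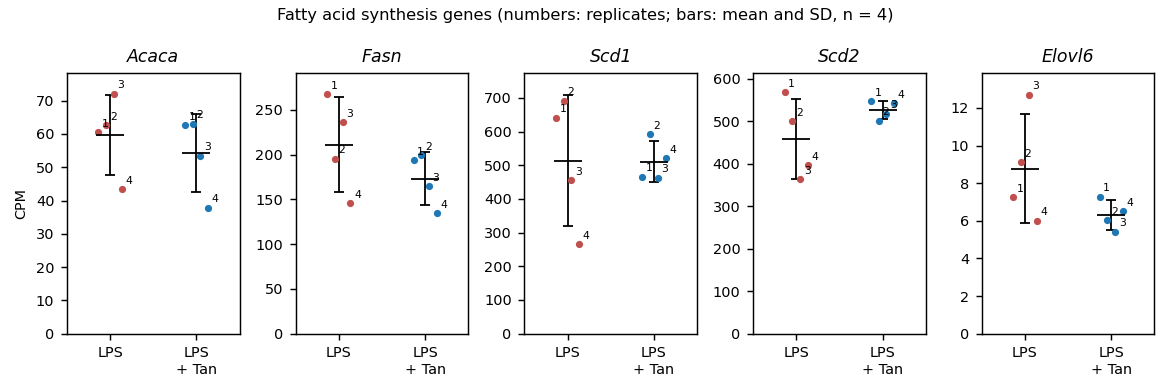
CPM of Acaca, Fasn, Scd1, Scd2 and Elovl6 in each sample, on axes that start at 0, with the replicate number beside each point and the mean and SD of each group (n = 4) as bars. LPS replicate 4 is the lowest LPS sample in 4 of the panels and is at 265 CPM for Scd1, while the LPS + Tan samples of Scd2 lie close together.

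LPS replicate 4 was the lowest LPS sample in Acaca, Fasn, Scd1 and Elovl6. Against the mean of the other 3 LPS samples it was lower by 33.3% of that mean in Acaca, 37.5% in Fasn, 55.5% in Scd1, 38.0% in Elovl6 and 16.8% in Scd2. The score of a role group is the mean of log2(CPM + 1) over its genes, relative to the mean of the LPS group. For fatty acid synthesis it was -0.48 in LPS replicate 4, between 0.13 and 0.19 in the other LPS samples, and between -0.23 and 0.015 in the LPS + Tan samples. The alveolar type 2 markers summed to 9816 CPM in LPS replicate 4, the lowest LPS sample in 8 of the 12 markers, below the 11010 to 14720 CPM of the other LPS samples, and to 9913 CPM in LPS + Tan replicate 3, whose Scd1 was 463 CPM. The fat cell markers, which would show adipose tissue beside the lung, summed to 98.3 CPM in LPS replicate 4 and to 66.0 to 114 CPM over the 8 samples, mostly through Plin4 and Lipe. The markers Adipoq, Plin1 and Cfd were 0.0778, 0.311 and 4.25 CPM in LPS replicate 4, their lowest in the LPS group, and 0.716, 1.07 and 11.5 CPM in LPS replicate 1, their highest in it. Plin4 and Cidea went the other way, at 41.1 and 2.13 CPM in LPS replicate 4, the highest of the 8 samples, so the list had no common direction there. Other lists also moved in LPS replicate 4. The markers of monocytes and interstitial macrophages summed to 392 CPM, the lowest of the 8 samples. Those of club and ciliated cells summed to 13770 CPM, the lowest in LPS, and the cardiac markers to 224 CPM, the highest in LPS. Of the 12 alveolar macrophage markers, 6 were lowest and 1 highest of the LPS group there. The part of these cells in the values was not tested.

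The score of LPS + Tan differed from that of LPS by 0.010 for the early enzymes, by -0.082 for the enzymes from squalene to cholesterol, by -0.061 for the regulators, by 0.066 for efflux and transport and by -0.096 for fatty acid synthesis. Each was smaller than the SD between the LPS mice, which was 0.14, 0.16, 0.12, 0.097 and 0.32 in the same order. The SD between the LPS + Tan mice was 0.11, 0.050, 0.12, 0.068 and 0.13, so the difference for the enzymes from squalene to cholesterol was larger than the SD of that group. Without LPS replicate 3 the difference for the enzymes from squalene to cholesterol was -0.0072, and that for fatty acid synthesis was -0.26 without LPS replicate 4 and -0.031 without LPS replicate 1. The differences for the early enzymes, the regulators and efflux and transport also move as single samples are left out, and are given with all samples only. In the plot of role scores, LPS replicate 3 lies above the rest of its group in the enzymes from squalene to cholesterol. LPS replicate 4 lies below the rest in fatty acid synthesis. LPS replicate 1 does not stand apart there, at 0.19 beside 0.16 and 0.13 in LPS replicates 2 and 3.

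**Figure D5:**
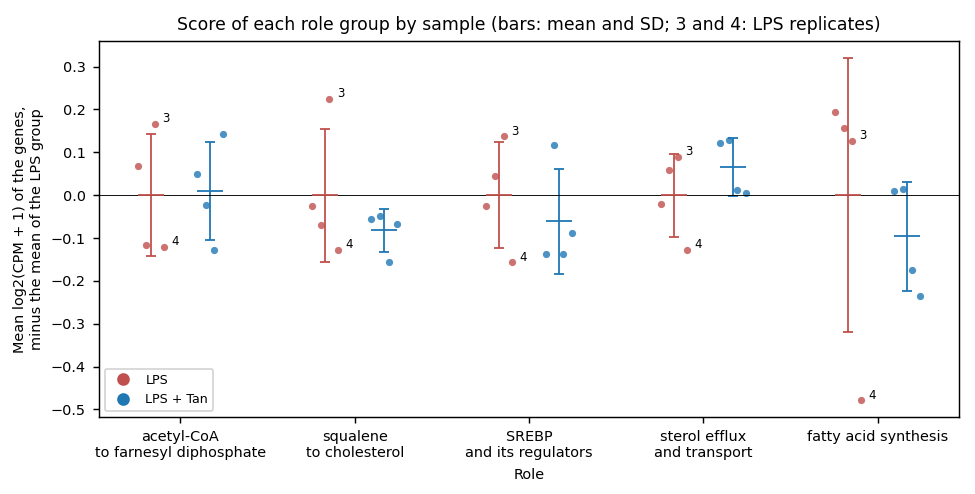
Score of each role group (mean of log2(CPM + 1) of its genes minus the mean of the LPS group) in each sample, with the mean and SD of each group as bars and LPS replicates 3 and 4 numbered. The groups overlap in all 5 roles, LPS replicate 3 is highest among the enzymes from squalene to cholesterol, and LPS replicate 4 is at -0.48 in fatty acid synthesis.

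The other genes of these pathways, from lists of lipid genes apart from the 31, were likewise not past an adjusted p of 0.05, the lowest being 0.924. Of the 9 other tested genes of sterol and isoprenoid synthesis and the 22 of fatty acid synthesis, elongation and desaturation, 0 were at an unadjusted p below 0.05 in either direction. Of the 14 genes of SREBP processing and sterol sensing, 1 was higher, Mylip, the ubiquitin ligase that degrades the LDL receptor, with a log2 fold change of 0.30 (edgeR, unadjusted p = 0.0407, adjusted p = 0.924). Of the 20 genes of cholesterol transport, storage and oxysterols, 2 were higher and 0 lower. Gramd1a, a carrier of cholesterol from the plasma membrane to the endoplasmic reticulum, had 39.8 ± 2.45 and 46.1 ± 3.74 CPM (SD, n = 4 each) in LPS and LPS + Tan, with no overlap, and a log2 fold change of 0.21 (edgeR, unadjusted p = 0.0314, adjusted p = 0.924). Cyp27a1, the sterol 27-hydroxylase, had 2.35 ± 0.917 and 4.13 ± 1.24 CPM (SD, n = 4 each) and a log2 fold change of 0.81 (edgeR, unadjusted p = 0.0332, adjusted p = 0.924). Of the 18 genes of fatty acid activation and triglyceride synthesis, 2 were higher and 1 was lower. Dgat2, which makes triglyceride, had a log2 fold change of 0.36, and Mgll, the monoglyceride lipase, one of 0.31. Acsl4, the acyl-CoA synthetase that prefers arachidonate, had one of -0.29. The unadjusted p was 0.0199, 0.0389 and 0.0269 and the adjusted p 0.924 for each by edgeR. The lists together held 5 higher and 1 lower of 83 tested genes, and the share of all tested genes at this threshold was 2.87% higher and 2.25% lower. As each of the 8 samples was left out, Mylip kept an unadjusted p below 0.05 in 2 of the 8 fits, Gramd1a and Mgll in 3, Cyp27a1 and Acsl4 in 4 and Dgat2 in 5. With the replicate number as a block, Gramd1a and Acsl4 were above 0.05.

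Markers of the cells that make or hold these lipids were called in 5 of 97 tested entries at an unadjusted p below 0.05, 3 higher and 2 lower, and in 0 after adjustment (edgeR), beside 2.87% and 2.25% of all tested genes. In either direction, 0 of the 12 alveolar type 2 markers, 0 of the 12 alveolar macrophage markers, 0 of the 12 neutrophil markers and 0 of the 7 tested fat cell markers were called. Of the 10 markers of monocytes and interstitial macrophages, 1 was higher, C1qa, a complement subunit, with a log2 fold change of 0.28. Of the 10 fibroblast markers 1 was lower, Col13a1, a collagen of lung fibroblasts, with -0.82, and of the 8 club and ciliated cell markers 1 was lower, Ccdc153, a ciliary gene, with -0.38. Of the 10 endothelial markers 2 were higher, the receptors Kdr, with 0.37, and Tek, with 0.51. C1qa stayed below an unadjusted p of 0.05 in 8 of the 8 fits that leave out a sample, Col13a1 in 5, Ccdc153 and Kdr in 3 and Tek in 2, and Kdr was above it with the replicate block and Tek with limma-voom. The 8 cardiac and the 8 erythroid markers had 0 calls, but all 8 cardiac markers had a log2 fold change above 0, with a median of 0.34, and all 8 erythroid markers one below 0, with a median of -0.37. The erythroid markers summed to 1431 to 3462 CPM in LPS and 1330 to 2186 CPM in LPS + Tan, and the cardiac markers to 162 to 224 and 157 to 312 CPM. Their part in the values of the 31 genes was not tested. The summed alveolar type 2 markers ran from 9816 to 14720 CPM in LPS and from 9913 to 15280 CPM in LPS + Tan, and the alveolar macrophage markers from 1334 to 2370 and from 1312 to 2417 CPM, so both ranges were shared by the groups. In sign, 10 of the 12 alveolar type 2 markers were below 0, with a median log2 fold change of -0.053, as were 7 of the 8 club and ciliated cell markers, with a median of -0.11, and 9 of the 10 markers of monocytes and interstitial macrophages were above 0, with a median of 0.16. Counts by sign are given without a test.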

How the data were processed

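RNA of 8 lungs was sequenced, 4 in each group, and samples were grouped by their labels, with 0 columns of sample values left without a sample. The methods give TRIzol extraction and a VAHTS library kit, whereas the labels name another extraction and library kit. The authors deposited raw read counts per gene, without normalization, and FPKM values, which are these counts divided by gene length and library total. The submitters' processing notes name the builds GRCm38 and mm10, with the aligner, counter and annotation not given in the sources used here.

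Gene counts were compared by edgeR 4.0.16 under R 4.3.3 (filterByExpr filter, TMM factors, quasi-likelihood test without covariates), and p was adjusted by the Benjamini-Hochberg method over 15706 genes. The standard error is the log2 fold change divided by the square root of F, and intervals are at 95%. FPKM was used only for levels between genes. Depth hardly differed between libraries, and counting error adds most to genes of few counts such as Tm7sf2. No pair of libraries within a group was a repeat, since their counts differed by 7.81 to 22.5 times sampling noise. Alternatives used DESeq2 1.42.0, limma-voom (limma 3.58.1), RLE factors, library totals alone, other filters on low counts, a replicate block and each sample left out. Scripts were tested on simulated data. Correlations were tested by exact permutation in scipy. Promoters were matched by symbol to RefSeq, and positions come from GENCODE vM21. The 31 genes and all lists were chosen with earlier results of these data known. All 31 are named, and each other list contributes, per direction, at most 2 genes of lowest p if below 0.05. The genes with printed sequence were chosen after their values were seen.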

Additional observations from a re-analysis of the deposited data

Results flagged for a closer look

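For each of the 31 genes and the role and summary scores, the gap of the most extreme sample to its nearest neighbour was compared with the range of its group. Of 76 groups of 4 samples examined, 3 had a sample far from the others, where chance flags about 1 in 20 groups, or 3.8 here. In the LPS + Tan group, replicate 4 was lowest in Hsd17b7, at 6.91 CPM against 11.6 to 12 CPM, and the gap was a share of 0.935 of the range in log2 CPM. The same sample was highest in Ebp, at 45.1 CPM against 34.7 to 36.1 CPM, with a share of 0.852. In the LPS group, replicate 4 was lowest in the score of fatty acid synthesis, at -0.48 against 0.13 to 0.19, with a share of 0.9. The cause was not tested for any of the 3.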

How the results depend on the processing

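No setting brought any of the 31 genes past adjustment over all genes. The smallest adjusted value was 0.488 (edgeR without LPS + Tan replicate 2). At an unadjusted p below 0.05, DESeq2 and edgeR without a count filter each called 1 of the 31 lower, Elovl6, beside 2.08% and 2.31% of all genes. As single samples were left out, 0 to 1 of the 31 were called higher (Scd2, without LPS replicate 1, where 3.1% of all tested genes were) and 0 to 3 lower (Elovl6, Fasn and Insig1 without LPS replicate 4, where 2% of all tested genes were). Over all genes, DESeq2 called 34 at an adjusted p below 0.05, and leaving out samples gave 0 to 1. At the thresholds of the methods, 113 were higher and 111 lower with DESeq2, 220 and 198 without a filter and 18 and 23 when 1 CPM in 4 samples was required, and 37 to 113 and 38 to 125 as samples were left out. At an unadjusted p below 0.05 the lower genes were 569 without a filter, and as samples were left out 268 to 820 were higher and 212 to 806 lower. The cause was not tested, other than that the filters change how many genes of low counts are tested.

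The sign of small differences changed. With library totals alone the log2 fold change was 0.028 for Hmgcs1, 0.039 for Mvk, 0.020 for Cyp51, 0.027 for Insig2 and 0.030 for Scd1, and limma-voom gave 0.080 for Scd1. Samples of the same replicate number had correlations of deviations of 0.18, -0.061, -0.17 and 0.057. Samples of unlike number were not compared, so these values do not settle whether the numbers pair the samples. The fit with the replicate number as a block gave 0.074 for Scd1, 397 genes higher and 429 lower at an unadjusted p below 0.05 and 0 calls among the 31 genes.

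As samples were left out, the log2 fold change ran from -0.081 to 0.077 for Mvk, -0.22 to 0.17 for Scd1, -0.068 to 0.026 for Insig2, -0.070 to 0.13 for Stard4, -0.13 to 0.059 for Acat2, -0.065 to 0.084 for Hmgcs1, -0.14 to 0.0083 for Fdft1, -0.15 to 0.17 for Cyp51, -0.19 to 0.049 for Msmo1, -0.13 to 0.0058 for Sc5d, -0.054 to 0.11 for Srebf1, -0.00072 to 0.13 for Abcg1, -0.052 to 0.18 for Fdps and -0.26 to 0.00070 for Acaca. With 4 mice in each group, the intervals given above set the precision.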

Other observations

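The gene lengths that the authors' FPKM values imply, from the counts and library totals, differed from the exonic bases of GENCODE vM21 by more than 1.5 times for 11 of the 31 genes. For Fdft1 the implied length was 10420 bases against 4227 exonic bases, for Pmvk 3401 against 1713 and for Insig2 7015 against 3473, so their FPKM would be higher with the annotated length. For Tm7sf2 it was 1479 against 4403, for Fdps 1461 against 4208 and for Msmo1 2328 against 6144, so theirs would be lower. The order of levels between genes depends on these lengths, and the comparison of the groups does not.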
